A study of Mus musculus with 13 samples.

Results

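A set of 10 genes that build or regulate the contractile filaments of smooth muscle was followed across all 13 whole-liver RNA libraries of a mouse study in which hepatic stellate cells were depleted. The genes were Acta2, Actg2, Tagln, Cnn1, Tpm2, Cald1, Lmod1, Myh11, Myl9 and Mylk, chosen by name and matched through their Ensembl identifiers, out of 22048 genes in the count table. All 10 had counts in at least 1 library, and 8 had enough reads to be tested, among 13831 tested genes. Actg2 and Cnn1 fell below that filter and are given by their counts.

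The libraries formed 3 groups of separately labelled livers. The control group was 6 livers not depleted of stellate cells, from 3 males (replicates 1, 2 and 6) and 3 females (replicates 3, 4 and 5). The depleted group was 4 livers depleted of hepatic stellate cells, from 3 females and 1 male, which was replicate 3. The hepatectomy group was 3 livers that were not depleted and were taken 72 h after partial hepatectomy, from 2 males and 1 female, which was replicate 3. Strain, age, the agent that depleted the cells and the interval after depletion are not given in the sources used here, nor is it stated whether the undepleted livers carried the same alleles or received the same agent. The labels do not say that libraries of 1 group came from separate experiments, so p-values measure the spread between these samples.

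Smooth muscle contracts when myosin thick filaments pull on actin thin filaments, and the switch lies on the thick filament. A rise in calcium activates myosin light chain kinase (Mylk), which phosphorylates the regulatory light chain (Myl9) of smooth muscle myosin heavy chain (Myh11). Tropomyosin (Tpm2), caldesmon (Cald1), calponin (Cnn1), transgelin (Tagln) and leiomodin (Lmod1) bind or assemble the thin filaments made from smooth muscle actins (Acta2, Actg2). In the liver the full set is found in the muscle coat of arteries and veins, while quiescent stellate cells, the pericytes of the sinusoids, take on Acta2 and other contractile genes when they become myofibroblasts. Caldesmon, tropomyosin and the kinase also have forms made outside muscle, and a count per gene adds all forms together. In RNA from whole liver, fewer cells of a type and less RNA per cell cannot be told apart.

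Total counts ran from 35360991 to 51008737 per library, and levels are given as CPM, a gene's count relative to its library's total on a fixed scale, with the totals adjusted by edgeR's trimmed mean of M-values (TMM). Stellate cell markers bore out the depleted label: 14 of 15 tested genes of a quiescent stellate list (Lrat, Reln, Colec10 and others) were called lower against control, where 15.0% of all tested genes were. Their summed level was 342 to 879 CPM in the controls and 31.1, 21, 41.1 and 127 CPM in depleted replicates 1 to 4. Depleted replicate 4 therefore held the highest stellate sum of its group, though below every control. The 7 leukocyte genes examined, a list added after values were seen, were all called higher, where 18.9% of all tested genes were, with sums of 26.3 to 170 CPM in controls and 504 to 1037 CPM in depleted livers. Control replicate 6 was low in stellate markers (342 CPM) and in endothelial markers (88.9 CPM, against 285 to 416 CPM in the other controls).

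In control liver the 10 genes spanned more than 3 orders of magnitude. Per kilobase of the gene length used in counting, Cald1 had the highest level, 22.8 ± 3.22 CPM per kb (SD, n = 6), followed by Mylk at 8.39 ± 1.01. Next came Tagln at 3.53 ± 1.57, Myl9 at 2.14 ± 0.419, Tpm2 at 1.36 ± 0.774 and Acta2 at 1.10 ± 0.901 CPM per kb. Cald1 lay above Mylk in every control, whereas the ranges of neighbours from Mylk down to Acta2 overlapped. Myh11 was lower still at 0.306 ± 0.142 and Lmod1 lower again at 0.0505 ± 0.0187 CPM per kb, with no overlap between Acta2, Myh11 and Lmod1. Cnn1 (0.0178 ± 0.0229) and Actg2 (0.0176 ± 0.0223) closed the order, and their ranges overlapped with each other and with that of Lmod1. Tpm2 separated only in part by sex among the controls, at 1.80 to 3.71 CPM in males and 3.03 to 7.48 CPM in females. Sex was a term in every fit described here unless another design is named.

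Many smooth muscle genes are controlled by serum response factor, which binds the CArG box, a short AT-rich core flanked by C and G pairs. The reference promoter table (RefSeq, GRCm38.p6) held 7 of the 10 genes. An exact CArG box lay within 250 bases upstream of the RefSeq start of Myl9, and copies with 1 C or G in the 6-base core lay there in Acta2 and Myl9. The other promoters, for Lmod1, Tpm2, Cald1, Cnn1 and Mylk, had no match in that window on either strand, which says only that these letters are not in it. Of all 32851 promoters, 1.47% held an exact match and 8.59% a match with up to 1 such base in the core. The Acta2 stretch is chr19:34255374-34255623 on the minus strand and that of Myl9 is chr2:156775214-156775419 on the plus strand, ending before the annotated gene. They are shown 5′ to 3′ because they carry the matches, with each match in capitals.
Acta2: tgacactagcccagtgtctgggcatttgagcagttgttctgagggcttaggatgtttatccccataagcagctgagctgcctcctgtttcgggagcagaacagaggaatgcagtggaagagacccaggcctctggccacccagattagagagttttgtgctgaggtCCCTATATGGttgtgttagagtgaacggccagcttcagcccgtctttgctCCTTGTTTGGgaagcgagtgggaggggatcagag
Myl9: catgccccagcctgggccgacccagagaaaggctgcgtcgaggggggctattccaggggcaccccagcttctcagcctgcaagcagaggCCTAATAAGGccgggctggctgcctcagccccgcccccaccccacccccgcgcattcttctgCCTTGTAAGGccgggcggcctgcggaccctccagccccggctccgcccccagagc
In Acta2 the matches begin 84 and 34 bases upstream of the RefSeq start and in Myl9 they begin 161 bases (the exact one) and 99 bases upstream. The RefSeq start is not the gene start of the count table. For Myl9 it lies inside that gene, past the end of the printed stretch, so the matches are nearer to that end. For Acta2 it lies upstream of the gene.

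Depletion of stellate cells was compared with control liver first. Tpm2, Cald1, Lmod1, Myh11 and Mylk fell, 5 of the 8 tested genes, and none rose (edgeR's quasi-likelihood test, Benjamini-Hochberg adjusted p under 0.05). Over all tested genes 33.9% were called, 15.0% lower and 18.9% higher. The groups did not overlap for Myh11, Lmod1 and Mylk, all lower in depletion, against 11.9% of all tested genes with separate ranges in that direction and 16.5% in the other.

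**Figure D1:**
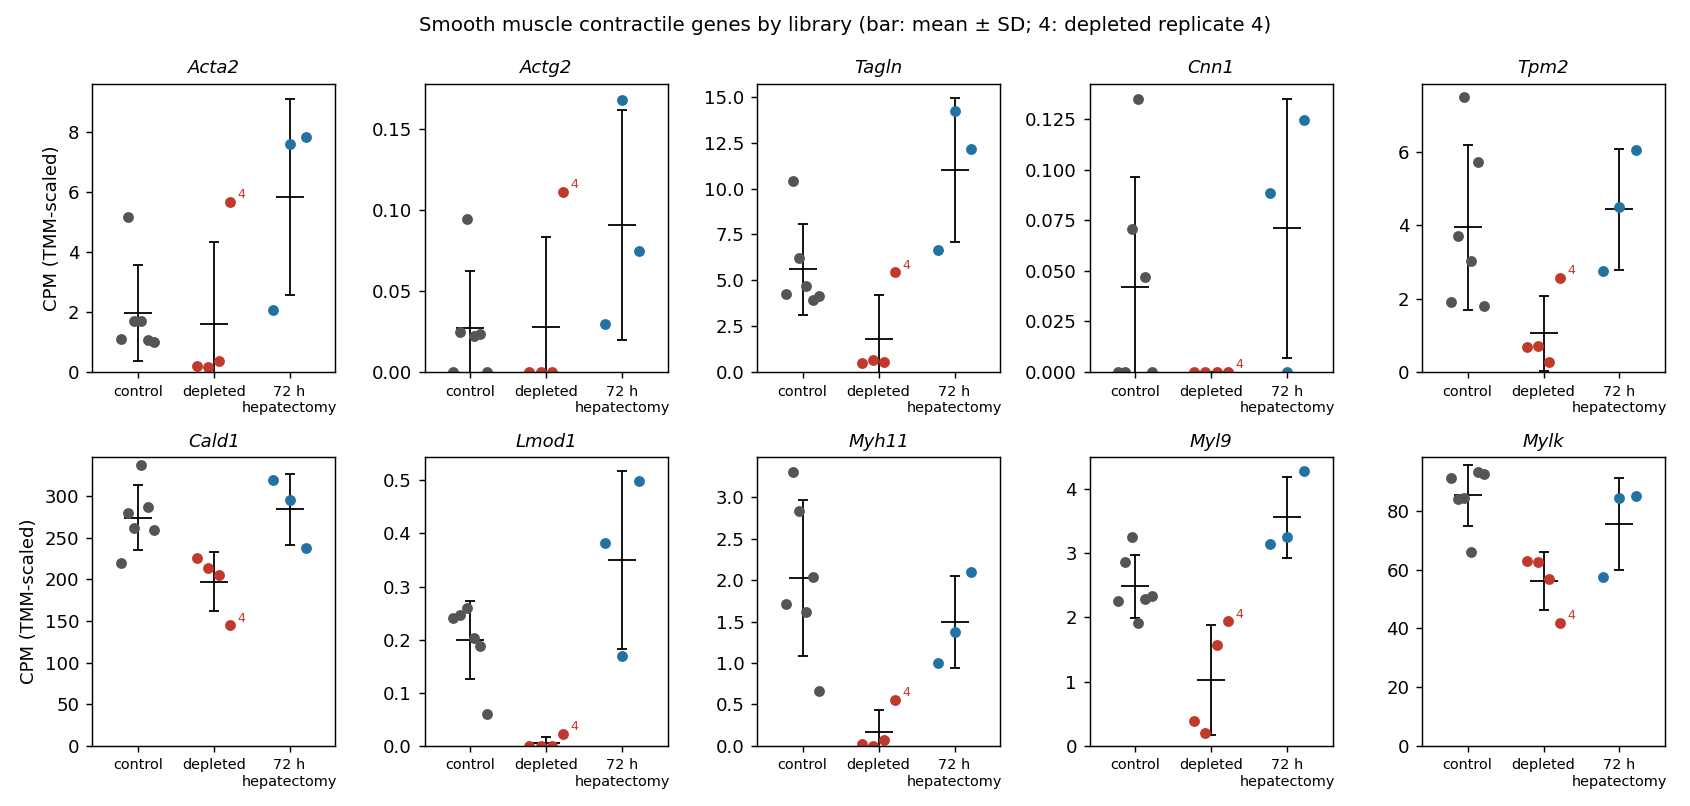
Level of each of the 10 genes in every library, in TMM-scaled CPM on linear axes that start at 0 and differ between panels. Points are libraries, bars are the group mean ± SD (cut at 0 where the SD passes it), and the digit 4 marks depleted replicate 4, which lies well above the other 3 depleted libraries for Acta2, Tagln, Tpm2 and Myh11 and is the lowest depleted library for Cald1 and Mylk.

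Among the thin filament genes, Acta2 (chr19:34241090-34255336, minus strand) encodes vascular smooth muscle actin, the usual marker of activated stellate cells. Its level was 0.990, 1.40 and 5.16 CPM as lowest, median and highest of the 6 controls, and 0.214, 0.179, 0.384 and 5.68 CPM in depleted replicates 1 to 4. Depleted replicates 1 to 3 lay below every control, and replicate 4 lay above every control. The log2 fold change was -0.42 ± 1.06 (SE, adjusted p = 0.797 by edgeR), with a 95% interval from -2.72 to 1.89. Without depleted replicate 4 it was -2.83 (adjusted p = 0.00903 by edgeR). Its sign turned without depleted replicate 3 (0.18) and in females alone (0.42). Acta2 reads may be shared with near-identical actin genes, and how such reads were assigned is not given in the sources used here.

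Tagln (chr9:45929628-45936058, minus strand), an actin-binding protein and early marker of smooth muscle differentiation, showed the same split. Control levels were 3.91, 4.47 and 10.4 CPM as lowest, median and highest, and depleted replicates 1 to 4 had 0.471, 0.649, 0.541 and 5.43 CPM. Replicates 1 to 3 were far below the controls and replicate 4 was within their range. The log2 fold change of -1.78 ± 0.74 did not pass the test with all libraries (adjusted p = 0.0836 by edgeR) and was -3.30 without depleted replicate 4 (adjusted p = 0.000149 by edgeR). It also passed with the replicate number as a block (-2.61, adjusted p = 0.0422) and with limma-voom (-2.44, adjusted p = 0.00655). Exons of Tagln overlap Pcsk7 and an antisense transcript on the opposite strand in the GENCODE annotation, and the strand setting of the counting is not given in the sources used here, so a part of the Tagln counts could belong to them.

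Tpm2 (chr4:43514711-43523765, minus strand) encodes the beta chain of tropomyosin, which lies along the actin filament. Its controls ranged from 1.80 through a median of 3.37 to 7.48 CPM, and depleted replicates 1 to 4 had 0.685, 0.717, 0.279 and 2.56 CPM. The first 3 depleted livers lay below all controls, and replicate 4 lay among the lower controls. Tpm2 fell by 2.27 ± 0.49 on the log2 scale (adjusted p = 0.00324 by edgeR), and without depleted replicate 4 by 2.98. It was also the only tested member called when the fit was limited to females.

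Cald1 (chr6:34598500-34775473, plus strand), the caldesmon gene, was the most abundant member. It ran from 219 through a median of 271 to 337 CPM in controls and was 225, 214, 205 and 145 CPM in depleted replicates 1 to 4. The difference was small and 1 depleted library overlapped the controls. Here replicate 4 was the lowest depleted library rather than the highest. Cald1 fell by 0.48 ± 0.16 on the log2 scale (adjusted p = 0.0378 by edgeR). That call was lost without control replicate 2, 3, 4 or 5 or depleted replicate 2, 3 or 4, where the adjusted p by edgeR lay between 0.0509 and 0.0926. It was lost too with library size as the only scaling (-0.39, adjusted p = 0.0968) and with the replicate block (-0.49, adjusted p = 0.14).

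Lmod1 (chr1:135324807-135368065, plus strand) encodes leiomodin, which nucleates actin filaments in smooth muscle. It gave 9, 10, 11, 9, 8 and 2 counts in control replicates 1 to 6, and 0, 0, 0 and 1 counts in depleted replicates 1 to 4. The 49 control counts against the 1 depleted count gave a depth-corrected ratio of 39.4 (95% interval 6.75 to 1587, counting error only). All 4 depleted libraries were below all 6 controls. The fitted log2 fold change was -4.75 ± 0.82 (adjusted p = 0.000736 by edgeR), and -6.14 without depleted replicate 4, a value that depends on the fit's prior count because the 3 libraries left were at 0.

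Cnn1 (chr9:22099281-22109630, plus strand), the calponin gene, was near the limit of detection. Its counts were 0, 0, 3, 6, 2 and 0 in control replicates 1 to 6 and 0 in all 4 depleted libraries. The control group total of 11 counts against 0 meant a level at least 2.95-fold lower in depletion, taking 3 counts over the group as the limit that 0 allows, and at least 2.02-fold as the 95% limit with the counting error of both groups. The 3 male controls were at 0 as well, so this difference rests on the 3 female controls, and Cnn1 was not tested. Actg2 (chr6:83512905-83536265, minus strand), the enteric smooth muscle actin, had 7 counts in the controls and 5 counts in the depleted group. All 5 of those counts were in replicate 4, and the ratio of control to depleted was 1.13 (95% interval 0.307 to 4.50).

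Among the 3 thick filament genes, Myh11, Myl9 and Mylk, the gap was widest between the heavy chain and the light chain kinase. Myh11 (chr16:14194527-14291408, minus strand), the smooth muscle myosin heavy chain, had 0.660, 1.88 and 3.31 CPM as lowest, median and highest control. Depleted replicates 1 to 4 had 0.021, 0, 0.070 and 0.557 CPM, which is 1, 0, 4 and 25 counts. Every depleted library was below every control, with replicate 4 just under control replicate 6. Myh11 fell by 3.83 ± 0.89 on the log2 scale (adjusted p = 0.00511 by edgeR), and by 5.83 without depleted replicate 4.

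Myl9 (chr2:156775420-156781658, plus strand), the regulatory light chain, ranged from 1.91 through a median of 2.32 to 3.26 CPM in controls. Depleted replicates 1 to 4 had 0.386, 0.202, 1.57 and 1.94 CPM. Depleted replicates 1 and 2 were far below the controls, replicate 3 was just below them and replicate 4 was level with the lowest control. The log2 fold change of -1.26 ± 0.51 missed the threshold (adjusted p = 0.0749 by edgeR). It passed without depleted replicate 4 (-1.84, adjusted p = 0.0146), with the replicate block (-1.52, adjusted p = 0.0462), with DESeq2 (-1.24, adjusted p = 0.0375) and with limma-voom (-1.68, adjusted p = 0.0193).

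Mylk (chr16:34745210-35002420, plus strand), the myosin light chain kinase, ranged from 66.0 through a median of 87.8 to 93.3 CPM in controls and was 62.9, 62.6, 56.7 and 41.9 CPM in depleted replicates 1 to 4. All 4 depleted livers lay below all controls, and replicate 4 was the lowest. Mylk fell by 0.60 ± 0.16 on the log2 scale (adjusted p = 0.0127 by edgeR), and the call was lost without depleted replicate 3 (adjusted p = 0.053). Its exons too overlap genes on the opposite strand in the annotation, so the strand caveat given for Tagln applies.

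**Figure D2:**
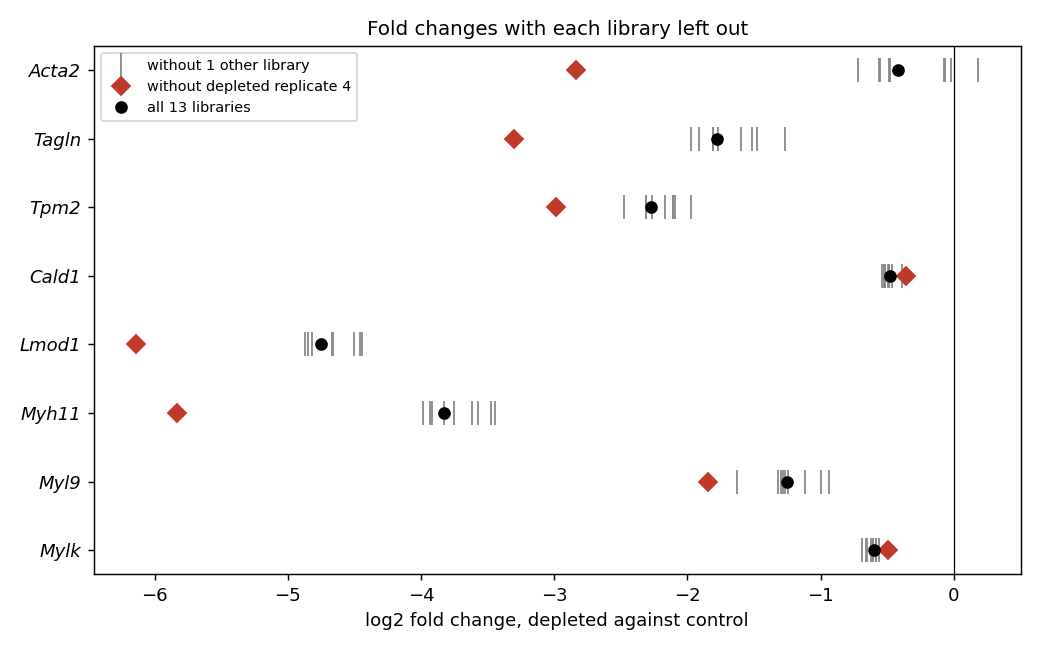
Log2 fold change of the 8 tested genes in depleted against control liver with all 13 libraries (circles), without depleted replicate 4 (diamonds) and without each other control or depleted library (ticks). Leaving out replicate 4 moved Acta2 from -0.42 to -2.83, Tagln from -1.78 to -3.30 and Myh11 from -3.83 to -5.83, and moved Cald1 and Mylk toward 0.

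The number of genes called moved with single libraries and with the tool. Without depleted replicate 4, 7 of the 8 tested members were called lower, all except Cald1, beside 2288 of 13737 genes called lower in that fit. Leaving out control replicate 3 left 3 members called (1788 of 13790 genes lower), and so did leaving out depleted replicate 3 (1174 of 13730 genes lower). With all libraries, DESeq2 called 6 and limma-voom 7 members lower, beside 2357 and 2277 of 13831 genes. In the fit without control replicate 3, and in the fit on females alone, Lmod1 no longer passed the filter on low counts. Within females, with 3 controls and 3 depleted livers, only Tpm2 passed (861 of 13444 genes were called lower), and the single depleted male gave no value within males with a replicate. In replicate 4 the genes did not return to control level together: Acta2 was above all controls, Tagln, Tpm2 and Myl9 were within the control range, and Myh11, Lmod1, Cald1 and Mylk were below it.

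Markers of other cells moved with this library. The summed level of an activated stellate and myofibroblast list of 11 genes (Col1a1, Col1a2, Col3a1 and others) was 54.2 to 251 CPM in controls and 3.60, 4.26, 2.74 and 120 CPM in depleted replicates 1 to 4. That list includes the members Acta2 and Tagln, so its sum is not independent of them. Col1a1, the main fibrillar collagen chain, had 0.021, 0.112, 0.017 and 24.3 CPM in those 4 libraries. A vascular smooth muscle and pericyte list of 10 genes (Notch3, Cspg4, Rgs4 and others) summed to 6.63 to 17.7 CPM in controls and to 2.44, 1.52, 3.98 and 5.01 CPM in the depleted livers. Itga8 made up the largest part of that sum in every control, at 2.91 to 12.3 CPM, and Cspg4 was too low to be tested. Of its 5 tested genes 4 were called lower and 1 higher, where 15.0% and 18.9% of all tested genes were. The receptor Notch3 fell by 4.81 on the log2 scale. Notch3 had 0.111 CPM in replicate 4, which was below all controls like its Myh11, whereas its Acta2 was above them. Depleted replicate 4 thus carried collagen transcripts that the other 3 depleted livers nearly lacked, and a higher stellate marker sum, and the part of this in its contractile gene levels was not tested.

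After partial hepatectomy the question was whether the regenerating liver differed from control in the same genes. None of the 8 tested members passed (edgeR's quasi-likelihood test), 0 had an unadjusted p under 0.05, and DESeq2 and limma-voom called 0 as well. Of all tested genes 8.42% were called, 6.06% higher and 2.36% lower, which is 1164 genes, and 632 with the replicate block. No member had separate ranges, against 6.25% of all tested genes with hepatectomy lower and 7.41% with hepatectomy higher. DESeq2 gave no adjusted p for Acta2 and Tagln, in any of the 3 comparisons.

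The actin and transgelin genes had the highest fitted fold changes here, with wide intervals. Acta2 had 2.06, 7.61 and 7.86 CPM in hepatectomy replicates 1 to 3, so that the last 2 lay above every control and the first lay within the control range. The log2 fold change was 1.56 ± 0.96 (adjusted p = 0.348 by edgeR), with a 95% interval from -0.54 to 3.66. Tagln had 6.64, 14.2 and 12.2 CPM in the same order, again with replicate 1 inside the control range, and a log2 fold change of 0.99 ± 0.68 (adjusted p = 0.399 by edgeR, 95% interval -0.48 to 2.47). Actg2 had 10 counts in 3 hepatectomy libraries against 7 in 6 controls, a ratio of 3.13 (95% interval 1.08 to 9.70, counting error only), and its ranges overlapped.

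Lmod1 gave 13, 6 and 20 counts after hepatectomy, at 0.382, 0.168 and 0.499 CPM, with a log2 fold change of 0.84 ± 0.54 (adjusted p = 0.362 by edgeR, 95% interval -0.32 to 2.0). Myl9 had 3.14, 3.26 and 4.29 CPM, a log2 fold change of 0.50 ± 0.52 (adjusted p = 0.593 by edgeR, 95% interval -0.62 to 1.63). For Lmod1 replicate 2 lay inside the control range and the other 2 above it, and for Myl9 replicates 1 and 2 lay inside and replicate 3 above. Tpm2 had 2.76, 4.49 and 6.03 CPM, all within the control range, and a 95% interval from -0.57 to 1.48. Cnn1 gave 3, 0 and 5 counts, against 11 in the 6 controls.

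Myh11 had 0.999, 1.38 and 2.09 CPM after hepatectomy, all within the control range. Its log2 fold change was -0.41 ± 0.78 (adjusted p = 0.803 by edgeR, 95% interval -2.10 to 1.29) and 0.015 without control replicate 2. The most abundant members moved least. Cald1 had 320, 295 and 237 CPM (log2 fold change 0.05, 95% interval -0.33 to 0.44), a value that became -0.16 with library size as the only scaling, which moved the median of all genes from -0.02 to -0.24. Mylk had 57.5, 84.3 and 85.2 CPM (log2 fold change -0.17, 95% interval -0.55 to 0.20), and replicate 1 was below all controls.

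Tissue markers differed between the 3 hepatectomy livers. The activated stellate and myofibroblast sum, which includes Acta2 and Tagln, was 92.6, 265 and 593 CPM in replicates 1 to 3. Col1a1 alone was 9.88, 52.8 and 106 CPM, the same order as for Acta2. Mesothelial genes (Msln, Upk3b, Upk1b and others) were called higher for 5 of 6, where 6.06% of all tested genes were, with sums of 13.7, 9.04 and 49.0 CPM against 1.05 to 4.55 CPM in controls. Portal fibroblast genes (Thy1, Fbln2, Eln and others) were called higher for 4 of 8, beside the same 6.06%. Those called were Fbln2, Eln, Cd34 and Pi16, but not Thy1 (log2 fold change 0.34, adjusted p = 0.653 by edgeR). The list summed to 18.8, 16.8 and 46.9 CPM against 9.90 to 21.8 CPM in controls. Cholangiocyte genes were called higher for 2 of 5, again beside 6.06%, with sums of 87.3 to 95.5 CPM against 49.2 to 93.2 CPM. Hepatectomy replicate 2 was low in endothelial genes, with a list sum of 89.6 CPM against 278 and 217 CPM in replicates 1 and 3, and in leukocyte genes, with 45.2 CPM against 220.1 and 100.05 CPM. Hepatectomy replicate 1 also held striated muscle transcripts, at a list sum of 8.96 CPM against at most 1.87 CPM elsewhere, with Acta1, the skeletal muscle actin, at 3.06 CPM. The part of these cells in the contractile gene levels was not tested.

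**Figure D3:**
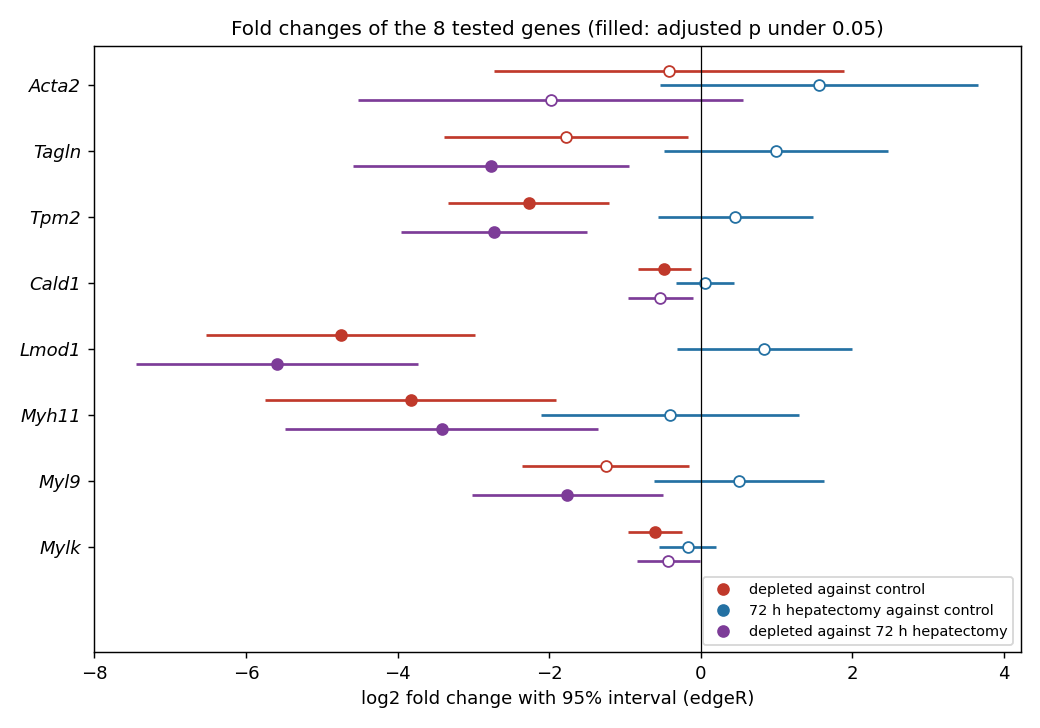
Log2 fold changes with 95% intervals from edgeR for the 8 tested genes in the 3 comparisons, filled where the adjusted p was under 0.05. No hepatectomy value passed against control, 5 genes passed in depleted against control and 5 passed in depleted against hepatectomy liver, with the narrowest intervals for Cald1 and Mylk.

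Depleted and hepatectomy livers were then compared directly, which shares the depleted libraries with the first comparison. Tagln, Tpm2, Lmod1, Myh11 and Myl9 were lower in depletion, 5 of 8 tested members, and none was higher. Over all tested genes 23.4% were called, 10.1% lower and 13.3% higher. The ranges of Tagln, Tpm2, Cald1, Lmod1, Myh11 and Myl9 did not overlap, 6 members in all, against 15.9% of all tested genes with depletion lower and 18.1% with depletion higher. Lmod1 stood at 39 counts in the 3 hepatectomy libraries against 1 count in the 4 depleted ones, a ratio of 68.8 (95% interval 11.6 to 2785), and Cnn1 at 8 counts against 0, at least 4.70-fold lower in depletion by the same limit of 3 counts and at least 3.01-fold with the counting error of both groups.

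The log2 fold changes by edgeR were -5.59 ± 0.86 for Lmod1 (adjusted p = 0.000785), -3.42 ± 0.95 for Myh11 (adjusted p = 0.0216) and -2.73 ± 0.57 for Tpm2 (adjusted p = 0.00455). Tagln fell by 2.77 ± 0.84 (adjusted p = 0.0318 by edgeR) and Myl9 by 1.76 ± 0.58 (adjusted p = 0.0445 by edgeR). Lmod1 and Tpm2 had the firmest calls, while those of Tagln, Myh11 and Myl9 depended on single libraries. The Myl9 call was lost without any 1 of the 3 hepatectomy livers or of depleted replicates 1 to 3, that of Tagln without hepatectomy replicate 2 or 3 or depleted replicates 1, 2 or 3, and that of Myh11 without depleted or hepatectomy replicate 3. The highest adjusted p in these fits was 0.188 for Myl9, 0.122 for Tagln and 0.0903 for Myh11. Fitted on these 2 groups alone, Lmod1 fell below the filter on low counts and was not tested, and only Tpm2 passed among the other 7. Acta2 (-1.98 ± 1.16, adjusted p = 0.246 by edgeR) passed once depleted replicate 4 was left out (-4.43, adjusted p = 0.00216). Cald1 (-0.53 ± 0.20, adjusted p = 0.0705 by edgeR) passed without hepatectomy replicate 3 (adjusted p = 0.0498), and Mylk (-0.43 ± 0.19, adjusted p = 0.128 by edgeR) without hepatectomy replicate 1 (adjusted p = 0.0441).

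The actin and the myosin gene did not keep a fixed ratio. Counts of Acta2 per count of Myh11, each divided by its gene length, lay between 1.97 and 5.81 in the 6 controls. The ratio was 7.67, 20.6 and 14.0 in hepatectomy replicates 1 to 3, above every control, although neither gene passed the test on its own there. In depletion it was 37.2, 20.5 and 38.0 in replicates 1, 3 and 4 and was undefined in replicate 2, where Myh11 had 0 counts. The values of depleted replicates 1 and 3 rest on 1 and 4 Myh11 counts, and that of replicate 4 on 25. Tagln per Myh11 was 8.03 to 26.2 in controls and 24.3 to 43.3 after hepatectomy, ranges that met. The same ratio was 92.0, 32.4 and 40.8 in depleted replicates 1, 3 and 4. These ratios were formed after the values were seen and were not tested. A ratio within a library is free of depth scaling and shows unequal change, not which gene changed.

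**Figure D4:**
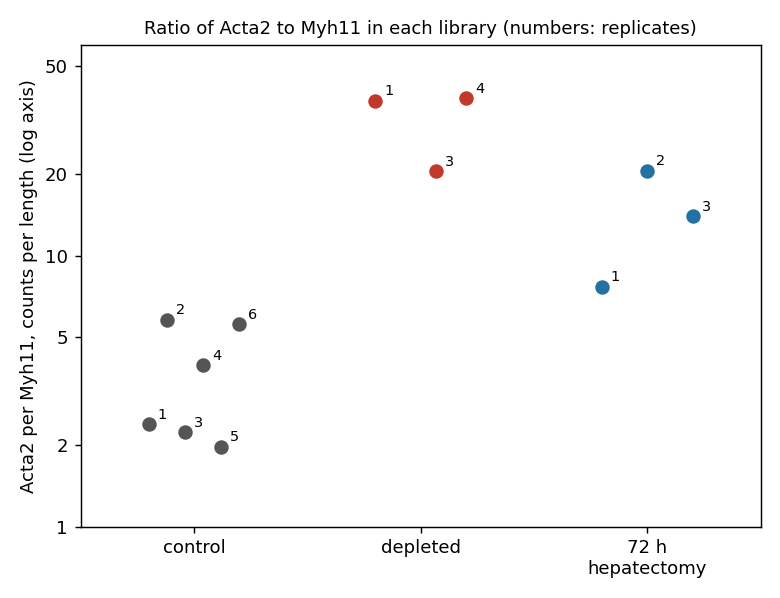
Acta2 counts per Myh11 count, both per gene length, in each library on a log axis, with replicate numbers beside the points. The 6 controls lie between 1.97 and 5.81, the hepatectomy livers between 7.67 and 20.6 and 3 depleted livers between 20.5 and 38.0, while depleted replicate 2 has no value because Myh11 had 0 counts.

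For 7 of the 10 smooth muscle genes, all but Cald1, Lmod1 and Mylk, 12 non-muscle relatives were read beside them. In depleted liver 9 of the 12 rose against control (Actb, Actg1, Myh9, Myl12a, Myl12b, Tpm3, Tpm4, Cnn2 and Tagln2) and 2 fell (Myh14 and Cnn3), where 18.9% of all tested genes were called higher and 15.0% lower. The pairs were named after the values were seen. Actb, cytoplasmic beta actin, averaged 439 ± 82.2 CPM in 6 controls and 1135 ± 427 CPM in 4 depleted livers (SD), a log2 fold change of 1.45 ± 0.21 (adjusted p = 0.000209 by edgeR). Tagln2 rose by 1.57 ± 0.26 while Tagln was at -1.78 ± 0.74, and Cnn2 rose by 1.98 ± 0.32 while Cnn1 had 0 counts. Myh9, the non-muscle heavy chain, rose by 0.86 ± 0.22 while Myh11 fell by 3.83. The other 2 non-muscle heavy chains did not follow it, since Myh14 fell by 0.59 ± 0.14 (adjusted p = 0.00586 by edgeR) and Myh10 was at -0.24 ± 0.25 (adjusted p = 0.497 by edgeR). Cnn3 fell by 0.39 ± 0.12 (adjusted p = 0.0265 by edgeR), a call lost without control replicate 3 or 5 or depleted replicate 1, 3 or 4 (adjusted p up to 0.141).

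Depleted replicate 4 had the highest Actb of all libraries, 1644 CPM, beside its high Acta2. Depleted replicates 1 to 3 had 827, 740 and 1331 CPM of Actb with Acta2 at only 0.214, 0.179 and 0.384 CPM. The calls of Myh9 and Tpm4 were lost without depleted replicate 3 (adjusted p = 0.0768 and 0.112 by edgeR), and those of Tpm4 and Myl12a were lost in females alone. After hepatectomy 2 of the 12 rose against control, Tagln2 and Tpm4, where 6.06% of all genes were called higher. The leukocyte sums given above were higher in the same depleted libraries as those 9 non-muscle genes, and the part of those cells in this difference was not tested.

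**Figure D5:**
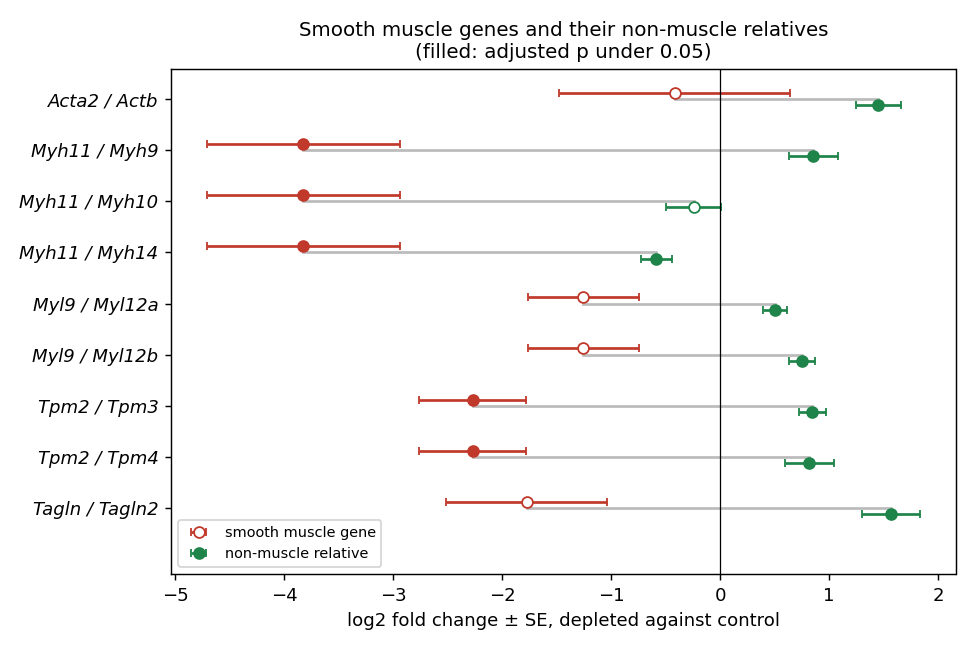
Log2 fold change ± SE in depleted against control liver for each tested smooth muscle gene that has a listed non-muscle relative, joined by a line, filled where the adjusted p was under 0.05. The non-muscle relatives shown lie above 0, from 0.50 for Myl12a to 1.57 for Tagln2, except Myh10 (-0.24) and Myh14 (-0.59), and the smooth muscle genes shown lie below 0, from -0.42 for Acta2 to -3.83 for Myh11, with Acta2, Tagln and Myl9 not passing the test.

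A wider list of 69 genes of the contractile machinery, 63 of them tested, was read in the same way. In depleted against control liver 15 rose (23.8%) and 14 fell (22.2%), beside 18.9% and 15.0% of all tested genes, with a median log2 fold change of 0.12 against -0.03 for all tested genes. Without depleted replicate 4 the number called was 32, within a range of 24 to 32 over the 10 fits that left out a library. Over all genes those fits called 2960 to 4817, beside 4692 with all libraries.

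Of 12 genes for calcium entry, calcium stores and excitability, 7 were tested, of which 4 fell and none rose, with a median of -1.15. Across all tested genes 15.0% were called lower. Ednrb and Ednra, receptors for the constrictor endothelin, fell by 4.41 ± 0.55 and 4.11 ± 1.08 on the log2 scale (adjusted p = 9.2e-05 and 0.0111 by edgeR). The Ednra call was lost in females alone (-3.49, adjusted p = 0.117). Ednra was at 0, 0, 0.017 and 1.25 CPM in depleted replicates 1 to 4 and at 2.37 to 5.71 CPM in controls, so replicate 4 was again the highest depleted library. Ano1, a calcium-activated chloride channel, fell by 2.32 ± 0.45 and Agtr1a, the angiotensin II receptor, by 1.15 ± 0.16.

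Among genes of dense plaques, intermediate filaments and anchors to the matrix, 5 of 13 fell (38.5%) and 1 rose (7.69%), read against the same 15.0% and 18.9% over all genes. Des, the muscle intermediate filament desmin and a stellate cell marker in rodents, was at 0 in depleted replicates 1 to 3 and at 2.0 CPM in replicate 4, against 2.64 to 5.36 CPM in controls. Its log2 fold change of -3.41 ± 1.19 (adjusted p = 0.0441 by edgeR) lost its call without any 1 of the controls or of depleted replicates 1 to 3, where the adjusted p by edgeR reached 0.12. Itga8, an integrin chain of contractile pericytes, fell by 2.55 ± 0.47, and Vim, the intermediate filament of mesenchymal cells and leukocytes, rose by 3.08 ± 0.40.

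The thin filament and cytoskeletal actin group held 9 higher (47.4%) and 3 lower (15.8%) of 19. Flna, which cross-links actin, rose by 2.05 ± 0.26 and Cnn2 by 1.98 ± 0.32. Pdlim3, a muscle Z-line protein also found in smooth muscle, went from 57 counts in the controls to 1 in the depleted group, a ratio of 45.8 (95% interval 7.90 to 1841, counting error only). The group of thick filament, light chain, kinase and phosphatase genes held 4 higher (26.7%) and 1 lower (6.67%) of 15, beside 18.9% and 15.0% of all genes, with Myh9, Myl12a and Myl12b among the higher and Myh14 the lower. Of the serum response factor and myocardin group, with 9 tested genes and 1 called in each direction (11.1%), Mrtfa rose by 1.10 ± 0.13 and Fhl1 fell by 2.98 ± 0.56. Myocd, the smooth muscle coactivator, was at 0 in 11 libraries and at 0.047 CPM in control replicates 3 and 5.

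After hepatectomy 4 of the 63 tested pathway genes rose against control and none fell. That is 6.35%, near the 6.06% of all tested genes called higher. All 4 belonged to the thin filament group: Pdlim7 (1.21 ± 0.25), Tagln2 (1.18 ± 0.29), Tpm4 (0.93 ± 0.25) and Tpm1 (0.70 ± 0.15, log2 fold change ± SE). The adjusted p by edgeR was 0.013 for Pdlim7, 0.0247 for Tagln2, 0.0343 for Tpm4 and 0.0127 for Tpm1. Tpm1, a tropomyosin made in all muscle types, averaged 30.3 ± 3.78 CPM in controls and 48.9 ± 6.17 CPM after hepatectomy. The number of pathway genes called was 1 without hepatectomy replicate 2 or replicate 3, and 2 without hepatectomy replicate 1 or control replicate 1. Over all genes, 483 to 1331 were called in the 9 fits that left out a library, beside 1164 with all libraries. Depleted against hepatectomy liver gave 11 higher and 14 lower pathway genes, 17.5% and 22.2% of the 63 tested, where 13.3% and 10.1% of all tested genes were called. Without depleted replicate 3 the count was 11 in all. Calls over all genes ran from 1709 to 3850 when a library was left out, beside 3236 with all libraries.

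Finally the genes whose library-to-library deviations were most like those of the members were listed. Each library's deviation from its group mean was averaged over the 8 tested members after scaling, which gave the largest value, 1.04, for depleted replicate 4 and the lowest, -0.69, for control replicate 6. Over the 13 libraries and 10769 genes of sufficient level, the closest, with members and predicted genes left out, were Thbs1 (Pearson r = 0.93), Emp1 (0.92), Ms4a4d (0.91) and Crlf3 (0.90). Col5a1 and Postn (both 0.88), Fbn1, Rpia, Col5a2 and Col6a3 (all 0.87) followed. Thbs1, the matrix protein thrombospondin, had 5.10, 2.71, 4.52 and 21 CPM in depleted replicates 1 to 4 and so shared the high value of replicate 4. The members themselves split, since Myh11 (r = 0.94 with the mean of the other members), Acta2 (0.83), Tagln (0.76) and Tpm2 (0.68) varied together. Myl9 (0.48) and Lmod1 (0.38) followed them less closely, and Mylk (-0.50) and Cald1 (-0.67) varied in the opposite direction. These correlations describe 13 libraries that share depth scaling and, for several genes, the same depleted liver.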

How the data were processed

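Whole-liver mRNA of 13 mice was sequenced from stranded libraries, per the labels' protocols. The deposited values are raw counts per gene, not normalised. The submitters' processing notes name STAR 2.7.1a, SAMtools 1.15.1, featureCounts 1.6.4 and the build mm10. Their settings, the strand option and the treatment of reads with several matches are not given in the sources used here. Identifiers were named through GENCODE release M21 (21741 of 22048 matched), and gene spans and lengths are those of the count table. Promoters are RefSeq's, searched on both strands, since the motif reads the same on each.

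Counts were filtered (filterByExpr), TMM-scaled and fitted in R 4.3.3 with edgeR 4.0.16 (quasi-likelihood, robust, group and sex, all 13 libraries). The p-values were adjusted by Benjamini-Hochberg over 13831 genes, with a threshold of 0.05. Standard errors came from the F statistic and intervals from its degrees of freedom. Alternatives were other scalings, DESeq2 1.42.0, limma-voom (limma 3.58.1), no filter, other designs and leaving out each library, which were repeated for the called list genes after values were seen. The script was tested on simulated counts. The biological coefficient of variation was 31.4%, and intervals on counts cover counting error only. No 2 libraries of a group agreed within sampling noise.

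The members and lists were chosen with earlier results of these data known. Named pathway genes are up to 3 per list and comparison with the largest change among those called, and markers are the first 3 of each list. The vascular smooth muscle list starts with Myocd, which is given with the regulators, and its next 3 are named. The genes most like the members are the top 10 after members and predicted genes were left out. Others named were chosen after their values were seen.

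Replicate numbers are in the labels, but same-numbered livers differ in sex in 3 of 4 depleted and control pairs. Deviations from group means correlated at -0.26, -0.19, -0.34 and 0.07 for depleted and control pairs, and at 0.23, 0.11 and 0.52 for hepatectomy and control pairs, which are all of the same sex. With sex removed the latter were 0.08, -0.19 and -0.05. The block is therefore an alternative.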

Additional observations from a re-analysis of the deposited data

Results flagged for a closer look

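Within groups of 4 or 6 libraries, 10 of 19 tested sets of member levels had 1 library set far apart from the others, where chance marks about 1 in 20. The measure is the gap to the nearest library divided by the group's whole range. The genes share libraries, so these are not independent.

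In the depleted group all of these were replicate 4, the highest library each time. The gap was 0.963 of the range for Acta2 (5.68 CPM), 0.964 for Tagln (5.43 CPM), 0.875 for Myh11 (0.557 CPM) and 1 for both Actg2 (0.111 CPM) and Lmod1 (0.022 CPM). The Lmod1 value is 1 count and that of Actg2 is 5 counts. For both the other 3 libraries were at 0, so any count gives a gap of 1 and the chance rate does not apply.

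Among the controls, replicate 2 was high for Acta2 (gap 0.828 of the range, at 5.16 CPM) and for Tagln (0.646, at 10.4 CPM). Control replicate 2 also had the highest Col1a1 of the controls, 32.3 CPM. Replicate 3 was high for Actg2 (0.738, from 4 counts). Replicate 6 was low for Lmod1 (0.637, at 0.060 CPM), beside its low stellate and endothelial sums. Replicate 4 was low for Mylk (0.658, at 66.0 CPM).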

How the results depend on the processing

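Of the member fold changes under the alternatives, 346 kept their direction and side of the threshold, 31 lost a call, 14 gained one and 6 reversed. The reversals were Acta2 in depletion (0.42 in females only, and -2.83 to 0.18 leaving out a library), Cald1 after hepatectomy (-0.16 with library size alone, -0.024 without control replicate 1, and -0.038 to 0.24 leaving out a library) and Myh11 after hepatectomy (-0.59 to 0.015 leaving out a library). None of the reversed values was called.

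Members called in depletion numbered 5, 6 with DESeq2, 7 with limma-voom, 4 with only these 2 groups (Lmod1 was then not tested), 1 in females only and 3 to 7 with a library left out. Against hepatectomy they numbered 5, 3 with library size alone, 1 with only these 2 groups and 2 to 6 with a library left out. Over all genes, depletion gave 4692 calls (2695 in females only, 2960 to 4817 leaving out a library), hepatectomy 1164 (2192 with library size alone, 1939 with DESeq2, 483 to 1331 leaving out a library), and depletion against hepatectomy 3236 (2105 with only these groups, 1709 to 3850 leaving out a library). Pathway calls ran from 1 to 5 for hepatectomy and from 11 to 27 for depletion against hepatectomy when a library was left out. The cause was not tested, except that fits on fewer samples have less information.

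Library size alone changed the split of higher and lower calls from 2614 and 2078 to 2884 and 1471 in depletion, from 838 and 326 to 626 and 1566 after hepatectomy, and from 1837 and 1399 to 3102 and 610 between them. The replicate block gave 632 calls for hepatectomy, and changed the member calls of Tagln, Myl9 and Cald1 in depletion as reported, and no other member call. Cnn1 and Actg2 had at most 11 counts per group, and depleted Lmod1 was 1 count.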
